A study of Homo sapiens with 6 samples.

Results

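The genes described here encode titin and proteins that bind it along the sarcomere, from the Z-disc through the thick filament to the M-band. They were taken by symbol: TTN, MYBPC3, ACTN2, MYOM1, MYOM2, MYPN, LDB3, NEBL and TCAP. All 9 were found among the 35793 genes listed, and all 9 reached the mean of 10 normalized counts set for testing, as did 15536 genes in all. RNA was measured in cardiomyocytes grown from WTC11, an established human induced pluripotent stem cell line, and harvested on day 15 of differentiation. Wild-type WTC11 was compared with a homozygous STK25 knockout made from it with CRISPR/Cas9, with 3 biological replicates of each genotype and no treatment. STK25 is a serine/threonine kinase. The knockout is described as a single cell line, so the edit and any other difference between the 2 lines cannot be told apart.

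The sarcomere is the contractile unit of striated muscle. Actin filaments are anchored at the Z-disc, where alpha-actinin crosslinks them, and myosin filaments are held in register at the M-band, where myomesins crosslink them. Titin spans from the Z-disc to the M-band as a molecular spring and a scaffold: its amino terminus is capped by telethonin (TCAP), its A-band part binds cardiac myosin-binding protein C (MYBPC3), and its carboxy terminus binds myomesin. In the heart, mutations in several of these genes are known causes of cardiomyopathy.

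Libraries held between 22443904 and 53224112 reads assigned to genes, a 2.37-fold range, and values are given as normalized counts, that is, reads divided by a scaling factor for each library. STK25 itself had 8874, 6774 and 8710 normalized counts in wild-type replicates 1 to 3 and 3906, 3434 and 3820 in the knockout, a log2 fold change of -1.12 ± 0.19 (SE, limma adjusted p = 0.00903, or 0.0609 without wild-type replicate 1). All 15 cardiomyocyte markers were present in both genotypes, with summed values of 2376357 to 2906232 in wild-type libraries and 3939444 to 6377899 in knockout libraries. Single markers moved apart: limma called TPM1 higher, at 1.33 on the log2 scale, and NKX2-5 and PLN lower, at -1.71 and -0.76. The TPM1 and PLN calls each held in only 1 of the 6 fits that left out a library. Of 13 skeletal muscle markers 7 were present, with a sum of 367 to 451 in wild-type libraries and 1196 to 2117 in knockout libraries. MYH3, the embryonic myosin heavy chain, made up most of the knockout sum and rose by 5.09 on the log2 scale (limma adjusted p = 0.000449), limma called 2 of the 7 lower, and PAX7, MYF5, MYOD1 and MYH1 had no read in any library. The summed level of 6 smooth muscle markers, all present, was 81840 to 91696 in wild-type libraries against 494465 to 544402 in knockout libraries. The sum of 10 fibroblast markers overlapped, at 14033 to 30388 against 12035 to 23398, but its genes moved apart: limma called 3 higher, TCF21 by 5.28 among them, and 1 lower, COL1A2, from 7514 to 240 normalized counts. Sums were higher in the knockout for epicardial (237 to 326 against 568 to 852) and neural markers (73.4 to 128 against 483 to 831), lower for endoderm markers (1660 to 3003 against 1191 to 1248), and overlapped for endothelial markers (174 to 476.5 against 418 to 584). The pluripotency sum (909 to 980 against 3264 to 4582) was mostly TDGF1, which rose from 560 to 3516. SOX2, which is also among the neural markers, was called higher too, from 1.91 to 138 normalized counts (limma adjusted p = 0.00256). LIN28A and DPPA4 did not pass the test, and POU5F1 had means of 9.02 and 32.7. The endoderm sum was mostly APOA1, which limma did not call (2026 against 1195, adjusted p = 0.136), while AFP was called lower. Of the endothelial markers, CDH5 and ERG had at most 1 read in any library. The smooth muscle sum was mostly ACTA2. A marker sum does not show that a cell type was present, and the part of any other cells in the values below was not tested.

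The RefSeq promoter windows of the members that the results turn on are shown first, to give the muscle promoter motifs that lie at their start sites. A window of 300 bases, from 250 before to 50 after the annotated start, was held for 7 of the 9 members, and 5 are printed, 5′ to 3′ on the gene's strand, on GRCh38.p14. Capitals mark a match to a motif known from muscle promoters: a MEF2 box in TTN and MYBPC3, an MCAT element in TTN, a CAGCTG E-box in ACTN2, and a CArG box, the site of serum response factor, in MYOM1 and LDB3.
TTN, chr2:178807374-178807673, minus strand: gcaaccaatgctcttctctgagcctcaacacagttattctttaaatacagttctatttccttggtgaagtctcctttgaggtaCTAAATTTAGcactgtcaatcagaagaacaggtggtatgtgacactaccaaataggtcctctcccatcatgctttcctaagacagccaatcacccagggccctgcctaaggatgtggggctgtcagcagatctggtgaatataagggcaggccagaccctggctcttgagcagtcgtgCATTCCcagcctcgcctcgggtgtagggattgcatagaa
MYBPC3, chr11:47352653-47352952, minus strand: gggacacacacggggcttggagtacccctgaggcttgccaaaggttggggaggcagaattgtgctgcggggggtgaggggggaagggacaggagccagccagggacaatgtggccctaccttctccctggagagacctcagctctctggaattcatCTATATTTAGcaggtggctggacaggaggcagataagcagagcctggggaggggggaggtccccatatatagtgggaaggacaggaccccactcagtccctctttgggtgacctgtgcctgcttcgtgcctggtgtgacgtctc
ACTN2, chr1:236686249-236686548, plus strand: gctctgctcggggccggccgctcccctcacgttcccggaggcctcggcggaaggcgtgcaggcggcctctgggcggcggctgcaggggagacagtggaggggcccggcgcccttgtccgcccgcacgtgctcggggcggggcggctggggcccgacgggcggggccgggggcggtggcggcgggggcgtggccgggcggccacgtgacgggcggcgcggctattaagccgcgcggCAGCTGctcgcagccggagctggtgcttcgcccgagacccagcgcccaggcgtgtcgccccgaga
MYOM1, chr18:3219919-3220218, minus strand: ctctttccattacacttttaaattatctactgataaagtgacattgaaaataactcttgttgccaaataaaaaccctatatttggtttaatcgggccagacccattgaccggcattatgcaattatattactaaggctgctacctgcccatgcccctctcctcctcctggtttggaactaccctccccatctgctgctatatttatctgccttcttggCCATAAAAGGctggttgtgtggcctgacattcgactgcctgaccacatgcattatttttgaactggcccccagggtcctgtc
LDB3, chr10:86668314-86668613, plus strand, the first of its 2 windows: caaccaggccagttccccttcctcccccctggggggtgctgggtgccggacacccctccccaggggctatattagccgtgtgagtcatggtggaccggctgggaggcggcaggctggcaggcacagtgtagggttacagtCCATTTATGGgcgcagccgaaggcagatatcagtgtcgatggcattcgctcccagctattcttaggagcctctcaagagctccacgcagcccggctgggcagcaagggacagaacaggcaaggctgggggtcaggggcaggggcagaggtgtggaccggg

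The TTN window had a MEF2 box starting 167 bases before the start and an MCAT element (CATTCC) starting 12 bases after the start. In MYBPC3 the MEF2 box began 94 bases before the start, in ACTN2 the E-box began 15 bases before it, in MYOM1 the CArG box began 32 bases before it, and in LDB3 110 bases before it. No 2 matches overlapped in these windows. Among the 35116 windows of the same length in the RefSeq table, 2.99% held a MEF2 box, 1.29% a CArG box, 14% an MCAT element and 17.9% a CAGCTG E-box, all searched on both strands. MYPN held 2 MCAT elements, and the 5 windows of NEBL held no match. A TATA box (TATAAA on the gene's strand), found in 7.33% of windows, was in none of the windows searched for the members. GC content ran from 44.3% in the MYOM1 window to 80.3% in that of ACTN2 among the 5 printed. A match is a description of letters and does not show that a factor binds there.

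The comparison asked whether loss of STK25 changed the RNA level of the sarcomere scaffold. No member passed the test across all genes (limma on log2 of the normalized count plus 1, adjusted p under 0.05), which called 12.8% of the 15536 genes tested, 5.97% for a rise and 6.79% for a fall in the knockout. Before adjustment 3 members were under p 0.05, TTN, ACTN2 and MYOM1, each with a higher knockout mean, against a background of 27.5% in either direction and 13.2% for higher values. Estimates were positive for 7 of 9 members with a median log2 fold change of 0.63, against 50.4% of tested genes and a median of 0.0052. The genotypes did not overlap for 4 members, TTN, ACTN2, MYOM1 and LDB3, each with the knockout higher, against 33.4% of all tested genes in either direction and 16.2% in that one. edgeR on the recovered reads called 0 members (background 12.1%), and DESeq2 called 1, ACTN2 (background 16.9%). In bulk RNA a change in the number of cardiomyocytes and a change in RNA per cardiomyocyte cannot be told apart.

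**Figure D1:**
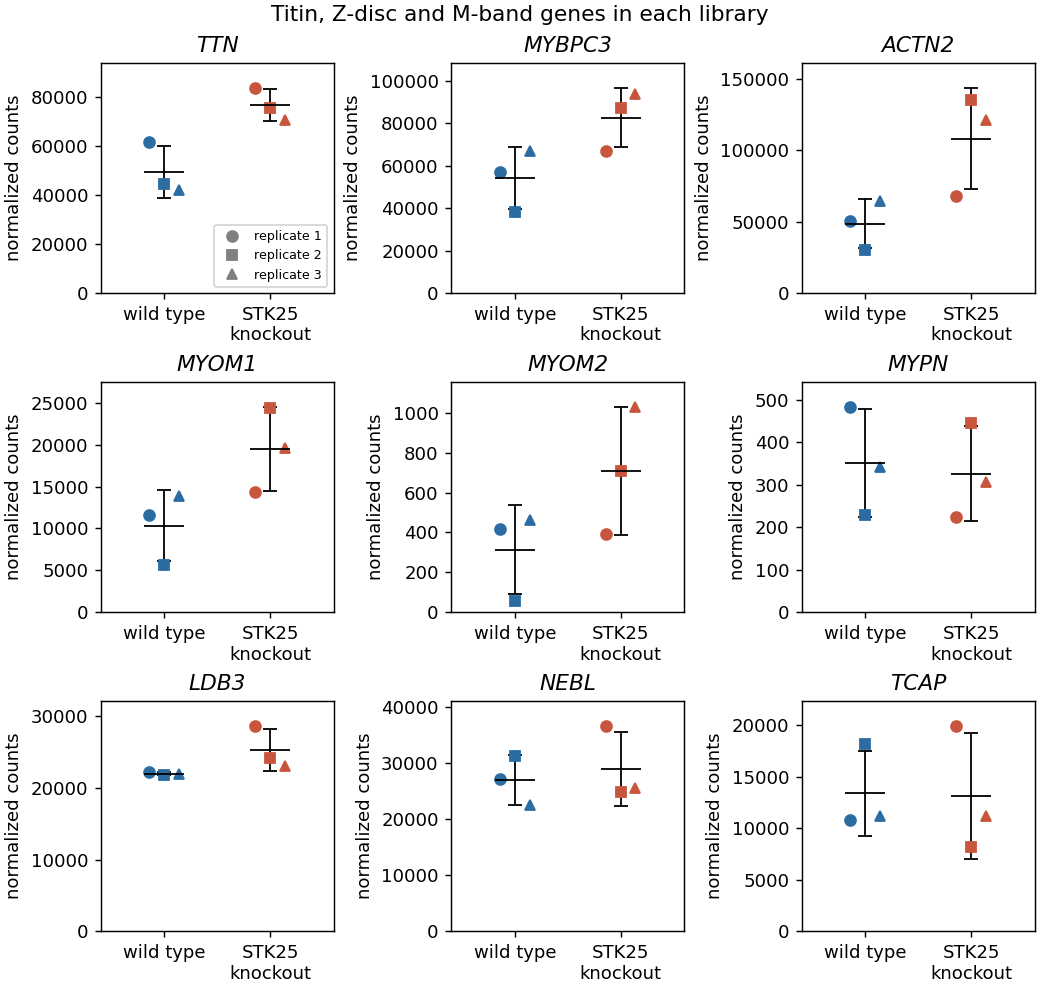
Normalized counts (vertical axes, linear from 0) of each member in the 3 wild-type and 3 knockout libraries; symbols mark replicates, horizontal lines the mean and bars 1 SD. TTN, ACTN2, MYOM1 and LDB3 show no overlap between genotypes, and the other 5 members overlap.

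Titin (TTN, ENSG00000155657.26, chr2:178525989-178830802 on GRCh38, minus strand) had 61455, 44262 and 41954 normalized counts in wild-type replicates 1 to 3 and 83722, 75476 and 70726 in the knockout. Every knockout library lay above every wild-type library, and replicate 1 was the highest of its genotype in both. The mean was 1.56-fold higher, 49224 ± 10655 against 76641 ± 6576 (SD, n = 3 each). The log2 fold change was 0.66 ± 0.24 (SE) with a 95% interval of 0.095 to 1.22 and a limma adjusted p of 0.124. The exact permutation test of 3 against 3 libraries gave p = 0.1, which is the smallest it can give. As a share of all reads TTN overlapped between genotypes, at 0.181%, 0.113% and 0.124% in the wild type and 0.168%, 0.194% and 0.170% in the knockout.

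TTN has the longest transcript of the tested genes, 109224 bases in GENCODE 29, where the next longest tested gene, SMAD2, has 34526. A correction of each library for its trend over transcript length and GC content moved the TTN estimate to 0.06 (limma adjusted p = 0.887). TTN was itself in the fit of that trend and no other tested gene is near its length, so the trend there rests in part on TTN. Holding the trend constant beyond 20 kb gave 0.51 (limma adjusted p = 0.0739). Over 21 alternatives the adjusted p of TTN ran from 0.0601 to 0.887. The 29 tested genes of at least 20 kb had a median log2 fold change of 0.10, and TTN ranked 6 from the top. Of 20 long transcripts of broadly expressed genes outside muscle, 11 had a positive estimate, their median was 0.07, and limma called none (2 were free of overlap). Several antisense genes cross the TTN locus, TTN-AS1 among them, and were not analysed here. The library kit is not stated to keep strand, so the reads of these antisense genes cannot be told apart from those of TTN. The protein-coding gene CCDC141 overlaps TTN on the same strand and has its own values, with a mean of 4013 normalized counts over all libraries. How reads from any shared stretch were assigned is not stated.

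Cardiac myosin-binding protein C (MYBPC3, ENSG00000134571.10, chr11:47331397-47352702, minus strand) binds myosin and titin in the C-zone of the A-band and tunes crossbridge cycling. It had 57308, 38340 and 67077 normalized counts in the wild type and 66927, 87309 and 93978 in the knockout. Knockout replicate 1 lay just below wild-type replicate 3, so the genotypes overlapped at that single point. The log2 fold change was 0.63 ± 0.29 (SE), with a 95% interval of -0.035 to 1.30 and a limma adjusted p of 0.205. After the length and GC correction it was 0.77 with a limma adjusted p of 0.0397, and over 21 alternatives the adjusted p ran from 0.0394 to 0.821. Without wild-type replicate 2 the MYBPC3 difference was 0.401. The MYBPC3 to TTN ratio overlapped between genotypes: its log2 difference was -0.02, with SDs of 0.48 in the wild type and 0.38 in the knockout (exact permutation p = 1), and it ran from -0.189 to 0.253 when single libraries were left out.

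Alpha-actinin 2 (ACTN2, ENSG00000077522.12, chr1:236686454-236764631, plus strand) crosslinks actin filaments of opposite polarity in the muscle Z-disc. It had 50467, 30452 and 64644 normalized counts in the wild type and 67930, 135452 and 121031 in the knockout. The genotypes did not overlap, but wild-type replicate 3 and knockout replicate 1 lay close together. The mean was 2.23-fold higher in the knockout, with a log2 fold change of 1.16 ± 0.38 (SE), a 95% interval of 0.28 to 2.04 and a limma adjusted p of 0.0888. DESeq2 called it (1.16, adjusted p = 0.0182), as did limma without knockout replicate 1 (1.47, adjusted p = 0.0303, background 14%) and limma after the length and GC correction (1.24, adjusted p = 0.0188, background 17.8%). Over 21 alternatives the adjusted p ran from 0.0182 to 0.377, and 4 passed the threshold.

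The non-muscle paralog ACTN1 had 11809, 5483 and 11897 normalized counts in the wild type and 11163, 23724 and 21026 in the knockout, and the genotypes overlapped (0.95, limma adjusted p = 0.167). The length and GC correction that called ACTN2 also called ACTN1, at 1.04 (limma adjusted p = 0.0470, in a range of 0.0464 to 0.418 over all alternatives). The ACTN2 to ACTN1 ratio of normalized counts was 4.27, 5.55 and 5.43 in the wild type and 6.09, 5.71 and 5.76 in the knockout. These ratios did not overlap, and their log2 difference was 0.21 (exact permutation p = 0.1, adjusted over 8 ratios 0.4). Without wild-type replicate 1 that difference was 0.0903. Both alpha-actinins were lowest of the wild type in replicate 2 and lowest of the knockout in replicate 1.

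LDB3 (ENSG00000122367.19, chr10:86668449-86736068, plus strand), also called Cypher or ZASP, is a PDZ-LIM protein that ties alpha-actinin to signalling kinases at the Z-disc. Its wild-type values were nearly equal, 22223, 21847 and 21972 normalized counts, a 1.02-fold range; only 0.393% of tested genes had a narrower one. The knockout values of 28673, 24138 and 23098 all lay above them. The log2 fold change was nevertheless small, 0.19 ± 0.19 (SE), with a 95% interval of -0.24 to 0.63 and a limma adjusted p of 0.569 (exact permutation p = 0.1). With libraries scaled to equal totals its sign turned to -0.09. The ratio of LDB3 to PDLIM5, a related PDZ-LIM protein, was lower by 0.30 on the log2 scale in the knockout with overlap (exact permutation p = 0.3), with a difference of -0.512 without knockout replicate 1.

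Nebulette (NEBL, ENSG00000078114.18, chr10:20779973-21174187, minus strand) links actin to the cardiac Z-disc and is the heart's short relative of nebulin. It had 27147, 31290 and 22435 normalized counts in the wild type and 36590, 24850 and 25461 in the knockout, with overlap, and a log2 fold change of 0.09 ± 0.24 (SE; 95% interval -0.47 to 0.66, limma adjusted p = 0.854). The NEBL symbol also covers transcripts of LASP2, a shorter product of the same gene, and gene totals cannot separate them. Nebulin itself (NEB), the giant thin-filament protein of skeletal muscle, was low: 48.3, 44.2 and 49.8 normalized counts in the wild type and 20.3, 11.1 and 3.55 in the knockout. The genotypes did not overlap, and NEB had a log2 fold change of -2.19 ± 0.67 (SE, limma adjusted p = 0.0730; DESeq2 0.0308; 0.0307 without knockout replicate 1; 0.0307 to 0.21 over all alternatives). The NEBL to NEB ratio was higher in every knockout library than in any wild-type library, by 2.29 on the log2 scale (exact permutation p = 0.1, adjusted 0.4). With a pseudocount of 10 in place of 1 the difference was 1.57, and it rests on 4 to 78 NEB reads per library.

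Myopalladin (MYPN, ENSG00000138347.15, chr10:68106117-68212017, plus strand) tethers nebulin-family proteins and alpha-actinin at the Z-disc. It was a low member, with 483, 229 and 342 normalized counts in the wild type and 225, 446 and 306 in the knockout. The ranges covered each other almost fully, and the log2 fold change was -0.10 ± 0.38 (SE; 95% interval -0.97 to 0.77, limma adjusted p = 0.903). That interval covers fold changes from 0.51 to 1.71. Its ratio to palladin (PALLD), the broadly expressed relative, differed by -0.16 on the log2 scale with overlap (exact permutation p = 0.5), with a range of -0.312 to -0.0343 when single libraries were left out.

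Telethonin (TCAP, ENSG00000173991.5, chr17:39664187-39666555, plus strand) glues the ends of 2 titin molecules together at the Z-disc. It had 10804, 18148 and 11207 normalized counts in the wild type and 19949, 8220 and 11231 in the knockout. Wild-type replicate 2 and knockout replicate 1 were high and the other 4 libraries low, whatever the genotype. The log2 fold change was -0.08 ± 0.36 (SE; 95% interval -0.92 to 0.75, limma adjusted p = 0.915). The TCAP to TTN ratio of normalized counts was 0.176, 0.410 and 0.267 in the wild type and 0.238, 0.109 and 0.159 in the knockout. These counts are not divided by transcript length, so the ratio is not a level of TCAP per titin. Those ratios overlapped, with a log2 difference of -0.74 (exact permutation p = 0.2, adjusted 0.533), or -0.435 without wild-type replicate 2.

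Of the M-band pair, myomesin 1 (MYOM1, ENSG00000101605.12, chr18:3066807-3220108, minus strand) crosslinks myosin filaments in all striated muscle, and myomesin 2 (MYOM2, ENSG00000036448.9, chr8:2045040-2165552, plus strand) appears in faster and more mature fibres. MYOM1 had 11608, 5566 and 13817 normalized counts in the wild type and 14341, 24434 and 19659 in the knockout. There was no overlap, although knockout replicate 1 exceeded wild-type replicate 3 only slightly. The mean of MYOM1 was 1.89-fold higher in the knockout, with a log2 fold change of 0.98 ± 0.37 (SE), a 95% interval of 0.13 to 1.84 and a limma adjusted p of 0.130. After the length and GC correction it was 1.06 with a limma adjusted p of 0.0358, and the range over 21 alternatives was 0.0349 to 0.358. Without wild-type replicate 2 the MYOM1 difference was 0.587.

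MYOM2 was far lower, with 420, 55.6 and 464 normalized counts in the wild type and 390, 708 and 1032 in the knockout. Knockout replicate 1 lay below 2 of the wild-type libraries, and wild-type replicate 2 stood well below all others. Its log2 fold change was the largest of the 9 members but also the least precise, 1.56 ± 0.80 (SE; 95% interval -0.28 to 3.41, limma adjusted p = 0.254). Without wild-type replicate 2 it was 0.575, and without any other single library it was 1.24 to 2.09. The MYOM2 to MYOM1 ratio was 0.0362, 0.00999 and 0.0336 in the wild type and 0.0272, 0.0290 and 0.0525 in the knockout, with overlap (log2 difference 0.58, exact permutation p = 0.6). TTN to MYOM1, titin against its M-band partner, also overlapped, with a log2 difference of -0.33 (exact permutation p = 0.7). Both ratio differences rest on wild-type replicate 2: without it they were -0.0126 for MYOM2 to MYOM1 and 0.00319 for TTN to MYOM1.

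**Figure D2:**
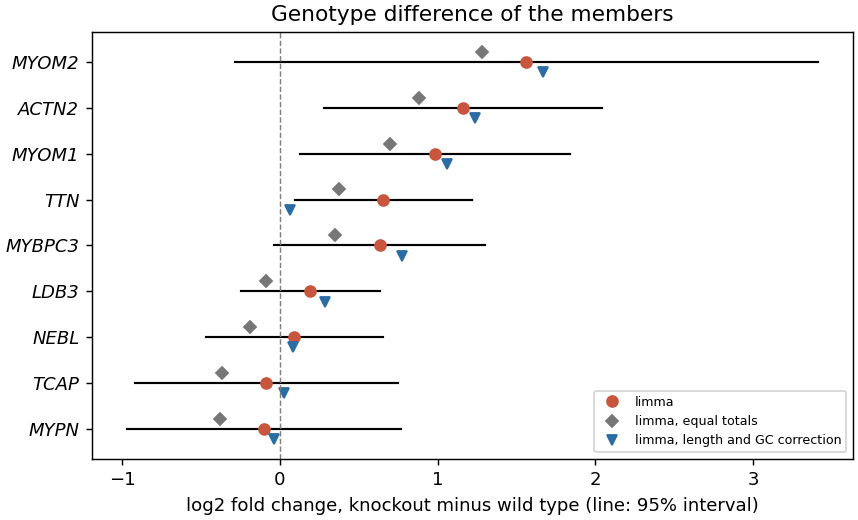
Log2 fold change of each member, knockout minus wild type (horizontal axis), from limma with its 95% interval, beside the estimates with libraries scaled to equal totals and after the length and GC correction. Intervals of TTN, ACTN2 and MYOM1 lie above 0, LDB3 and NEBL change sign under equal totals, and the length and GC correction moves TTN from 0.66 to 0.06. With the trend held constant beyond 20 kb, which is not drawn, TTN was at 0.51.

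Scaling set the level of all 9 estimates. The total of normalized counts was larger in the knockout on average, with overlap, and scaling to equal totals moved the median of all tested genes from 0.0052 to -0.27. Under it 5 members were positive, their median was 0.35, and limma called none of them and none at an unadjusted p under 0.05. Of the genes called across the table, 46.8% were higher in the knockout by the deposited scaling and 27.4% by equal totals. ACTN2 was at 0.88, MYOM1 at 0.70, TTN at 0.37 and MYBPC3 at 0.35 by equal totals, all above that shifted median.

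Levels of different members can be compared only per length. Divided by the length in kb of each gene's longest GENCODE 29 transcript, the wild-type means ran in the order MYBPC3 (12835 ± 3458 normalized counts per kb, SD, n = 3), ACTN2 (9508 ± 3366), TCAP (6305 ± 1945), LDB3 (4050 ± 35.2), NEBL (2925 ± 481), MYOM1 (1767 ± 731), TTN (451 ± 97.6), MYOM2 (62.5 ± 44.7) and MYPN (57.4 ± 20.9). Ranges over all 6 libraries overlapped between neighbours down to LDB3, between NEBL and MYOM1, and between MYOM2 and MYPN. They did not overlap between LDB3 and NEBL, MYOM1 and TTN, or TTN and MYOM2. In the knockout ACTN2 (21191 ± 6968 per kb) and MYBPC3 (19578 ± 3335) had the highest means, and their ranges overlapped. TTN at 702 ± 60.2 per kb in the knockout thus stayed below MYOM1 at 3331 ± 863 on the same scale. The position of TTN depends on which titin isoform the length is taken from, and gene totals do not say which was expressed.

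Within a genotype most members followed either of 2 opposite patterns, while TTN and LDB3 did not. The share of all tested genes with either pattern was not counted. MYOM2, MYOM1, ACTN2, MYPN and MYBPC3 were all lowest in wild-type replicate 2 among wild-type libraries and lowest in knockout replicate 1 among knockout libraries. TCAP and NEBL did the reverse and were highest in those same libraries. The deviations of these 2 libraries were also alike across the table, with a correlation of 0.45 over 15536 genes. In wild-type replicate 2 the log2 deviation from the genotype mean was -1.98 for MYOM2, -0.79 for MYOM1 and -0.60 for ACTN2, but 0.48 for TCAP and 0.23 for NEBL. In knockout replicate 1 it was -0.75, -0.41 and -0.61 for the first 3 genes, and 0.70 and 0.36 for the last pair. TTN and LDB3 were highest in replicate 1 of both genotypes. The wild-type range of MYOM2, 8.35-fold from lowest to highest, was wider than that of 97.1% of tested genes, while the knockout range of TTN, 1.18-fold, was narrower than most, at the 9.73 percentile.

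**Figure D3:**
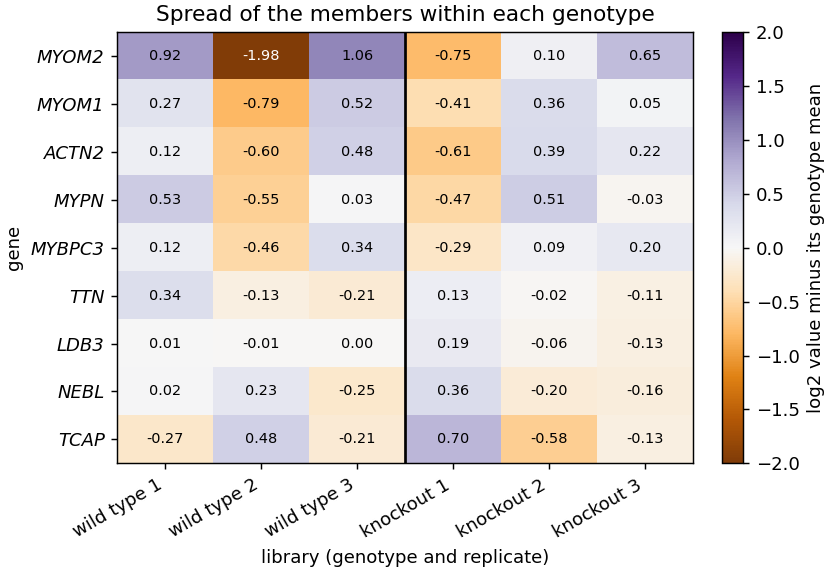
Log2 normalized count of each member (rows) in each library (columns) minus the mean of its genotype, as printed in each cell. Wild-type replicate 2 and knockout replicate 1 are low for the 5 upper genes and high for NEBL and TCAP in the 2 lowest rows.

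The same 2 libraries also differed by transcript length. The 3794 tested genes with the shortest transcripts, up to 2265 bases, had a median log2 deviation of 0.31 in wild-type replicate 2 and 0.33 in knockout replicate 1, against -0.21 to 0.0017 in the other 4 libraries. The 3793 genes of 3573 to 5341 bases stood at -0.16 and -0.19 in those 2 libraries. The 3794 longest, from 5342 bases up, which include TTN, NEBL, MYPN, MYOM1 and LDB3, stood at -0.12 in wild-type replicate 2 but at -0.036 in knockout replicate 1, close to the -0.033 of knockout replicate 3. Genes of at least 10000 bases were at -0.098 in wild-type replicate 2 and at 0.13 in knockout replicate 1. TCAP has the shortest transcript of the members, 2123 bases, but NEBL, at 9216, has the second longest. Correcting for length and GC gave 3 members called, MYBPC3, ACTN2 and MYOM1, beside 17.8% of all genes (9.77% higher and 8.07% lower in the knockout). The part of transcript length in the spread of the members within a genotype was not tested.

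By the rule for likeness, the root mean square difference of centred log2 profiles over the 6 libraries among 11932 genes with a mean of at least 100, the gene most like TTN was TPST2 (0.0735), followed by ZNF625-ZNF20 and WDPCP. For MYBPC3 the nearest were TPCN1, REEP1 and ATAD3A, for ACTN2 EFHC2, FBXL18 and LRRC1, and for MYOM1 GMCL1, TBC1D8 and GDAP1. MYOM2 had the loosest neighbours, BMP10 (0.373), PER3 and AMIGO2. The nearest genes to MYPN were DDX6, ZMYM1 and ZNF260, those to LDB3 RHOBTB3, NAT9 and GCA, those to NEBL NFKBIA, RSRC2 and EIF4A1, and those to TCAP ZNF503, PIGBOS1 and SIVA1. No member was among the 3 nearest of another; the closest pair of members was ACTN2 and MYOM1 (0.172), with MYOM1 at rank 33 for ACTN2. All 6 points of each profile share the same libraries and scaling factors, so the measure is a description.

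Set against the mean log2 level of the 15 cardiomyocyte markers in the same library, in which scaling factors cancel, each difference was lower by 0.33, the amount by which the marker mean itself was higher in the knockout. Relative to it ACTN2 was higher by 0.83, MYOM1 by 0.65, TTN by 0.33, MYBPC3 by 0.30 and MYOM2 by 1.23, while MYPN (-0.43), TCAP (-0.42), NEBL (-0.24) and LDB3 (-0.14) were on the other side. For each of the 9 members the genotypes overlapped on this scale, and every adjusted exact permutation p was 0.5. Without wild-type replicate 2 the differences were 0.512 for ACTN2, 0.24 for MYOM1, 0.243 for TTN, 0.0541 for MYBPC3 and 0.227 for MYOM2. Over the 6 fits that left out a library those of MYPN ran from -0.772 to -0.0864, TCAP from -0.66 to -0.192, NEBL from -0.357 to -0.14 and LDB3 from -0.192 to -0.0953. The choice of markers mattered: the 5 markers that are not sarcomere proteins had a mean lower in the knockout by 0.34 (difference -0.34). Those 5 moved apart: NKX2-5 was at -1.71, PLN at -0.76, RYR2 at -0.15, SLC8A1 at 0.10 and ATP2A2 at 0.81. Relative to their mean, MYOM2 stood 1.91 higher, ACTN2 1.5, MYOM1 1.32, TTN 1.00 and MYBPC3 0.97. MYPN, LDB3, NEBL and TCAP were positive too, at 0.24, 0.54, 0.44 and 0.26. No test was run on this scale.

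Among 30 other Z-disc proteins 29 were tested, and limma called 8: 6 rose and 2 fell, with a list median of 0.60. Over all tested genes 12.8% were called and the median was 0.0052. This list and those below were chosen with earlier results of these data known, so their shares are a description. Only 2 of these Z-disc genes were called once replicate 1 or 3 of the wild type, or replicate 3 of the knockout, was left out. Calls fell across the whole table in the same fits. With all libraries 927 of 15536 genes were called higher and 1055 lower. Without wild-type replicate 1 these counts were 399 and 397, without wild-type replicate 3 453 and 463, and without knockout replicate 3 369 and 593. LMCD1, a LIM-domain protein tied to calcineurin signalling, rose from 1465 ± 48.1 to 5984 ± 117 normalized counts (SD, n = 3; log2 fold change 2.03 ± 0.16 SE, limma adjusted p = 0.00042). CRYAB, the small heat-shock chaperone of desmin and titin, rose by 1.64 ± 0.34 (limma adjusted p = 0.0195), and PDLIM7, a PDZ-LIM scaffold, by 1.36 ± 0.26 (0.0143). PPP3CA, the calcineurin catalytic subunit, rose from 413 ± 131 to 992 ± 249 (limma adjusted p = 0.0318). CSRP3, the muscle LIM protein that binds TCAP, fell by 1.23 on the log2 scale, from 40519 ± 3055 to 17517 ± 3741 (limma adjusted p = 0.0128). Leaving out replicate 1 of the wild type, replicate 3 of the wild type or replicate 3 of the knockout ended the calls of CRYAB (limma adjusted p 0.0949, 0.0857 and 0.0590), PDLIM7 (0.0775, 0.0629 and 0.0613) and CSRP3 (0.0681, 0.0536 and 0.0583). Of the 6 fits that left out a library, PPP3CA passed only in that without wild-type replicate 2, its limma adjusted p being 0.132, 0.110, 0.0589, 0.0775 and 0.0628 without the other 5. LMCD1 passed in all 6 such fits.

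Of 13 other M-band and A-band partners of titin, limma called 1, a share below the 12.8% of all genes, with a list median of 0.20. It was CKM, the muscle creatine kinase that docks at the M-band, which rose from 25506 ± 490 to 108307 ± 2775 normalized counts (2.09 ± 0.20 SE, limma adjusted p = 0.000887). MYOM3, the third myomesin, had 0.54 ± 0.58 (SE, limma adjusted p = 0.609); it is given as the remaining myomesin and was chosen after its values were seen.

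Partners of titin's I-band spring changed in both directions. Of 8 tested from a list of 9, limma called 2 higher and 1 lower, with a median of 0.75 (12.8% of all genes were called). Because the list was chosen with earlier results known, its share beside that of all genes is a description. FHL1, a LIM protein bound to the N2B element of titin, rose from 287, 162 and 489 normalized counts in wild-type replicates 1 to 3 to 4962, 6099 and 6318 in the knockout (4.34 ± 0.38 SE, limma adjusted p = 0.000572). FHL2, its relative at the same element, fell from 18550, 21318 and 16667 to 2053, 1893 and 2246 (limma adjusted p = 0.000158), a log2 fold change of -3.19 ± 0.18 (SE). Both passed in each of the 6 fits that left out a library. ANKRD2, an ankyrin repeat protein of the N2A region, rose from 0, 11.4 and 18.5 to 87.7, 88.1 and 122.6 (3.99 ± 1.07 SE, limma adjusted p = 0.0485). That ANKRD2 call held only without wild-type replicate 1; without the other 5 libraries the adjusted p was 0.0636, 0.0504, 0.0762, 0.102 and 0.154. Of 15 other settings 7 called it, and among those that did not were edgeR (adjusted p = 0.0565) and equal totals (0.0673), in a range of 0.000316 to 0.154 over all alternatives.

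In a list of 5 genes, relatives of MYBPC3 and the kinase MYLK3, 2 were expressed enough to test, and limma called 1 (12.8% of all genes). It was MYBPHL, an atrial-enriched myosin-binding protein, which rose from 120 ± 36.4 to 480 ± 111 normalized counts (2.00 ± 0.32 SE, limma adjusted p = 0.00742). MYLK3 was not called (0.70, limma adjusted p = 0.162). MYBPH, below the mean set for testing, had 6.04, 22.1 and 29.3 in the wild type and 0 in each knockout library. MYLK3 and MYBPH are given to describe the list and were chosen after their values were seen. Of 6 proteins of the thin filament ends, limma called 1, beside 12.8% of all genes, with a list median of 0.04. It was LMOD3, an actin nucleator at the pointed end, which rose from 86.8 ± 15.3 to 492 ± 41.4 (2.5 ± 0.28 SE, limma adjusted p = 0.00156). Of 10 regulators of titin and LDB3 splicing, limma called 1, near the 12.8% of all genes, with a list median of 0.20. KHDRBS3, an RNA-binding splicing regulator, had 127, 257 and 138 normalized counts in the wild type and 0 reads in each knockout library, at least 53.1-fold lower against a floor of 3 reads per library (limma adjusted p = 0.000491). Placing KHDRBS3 at that bound leaves it the lowest of the list and the median as it is.

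None of 9 sarcomere assembly chaperones passed the limma test, and 2 were without overlap, against 12.8% and 33.4% of all tested genes (list median 0.20). Of 15 transcriptional activators of sarcomere genes, limma called 2, one in each direction, a share near the 12.8% of all genes, with a list median of 0.19. NKX2-5, the cardiac homeobox factor, fell from 21091 ± 2088 to 6444 ± 498 normalized counts (-1.71 ± 0.18 SE, limma adjusted p = 0.00135). MEF2C, whose family binds the MEF2 box marked in the TTN and MYBPC3 windows, rose from 3299 ± 598 to 7239 ± 1082 (1.14 ± 0.22 SE, limma adjusted p = 0.0138). Its relatives MEF2A (0.06, limma adjusted p = 0.907) and MEF2D (0.04, 0.947) were not called. A link between MEF2C and the members was not tested. The MEF2C call ended without wild-type replicate 3 (limma adjusted p = 0.0519) or knockout replicate 3 (0.0600), and under equal totals (0.86, 0.0939), in a range of 0.000179 to 0.0939 over all alternatives.

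**Figure D4:**
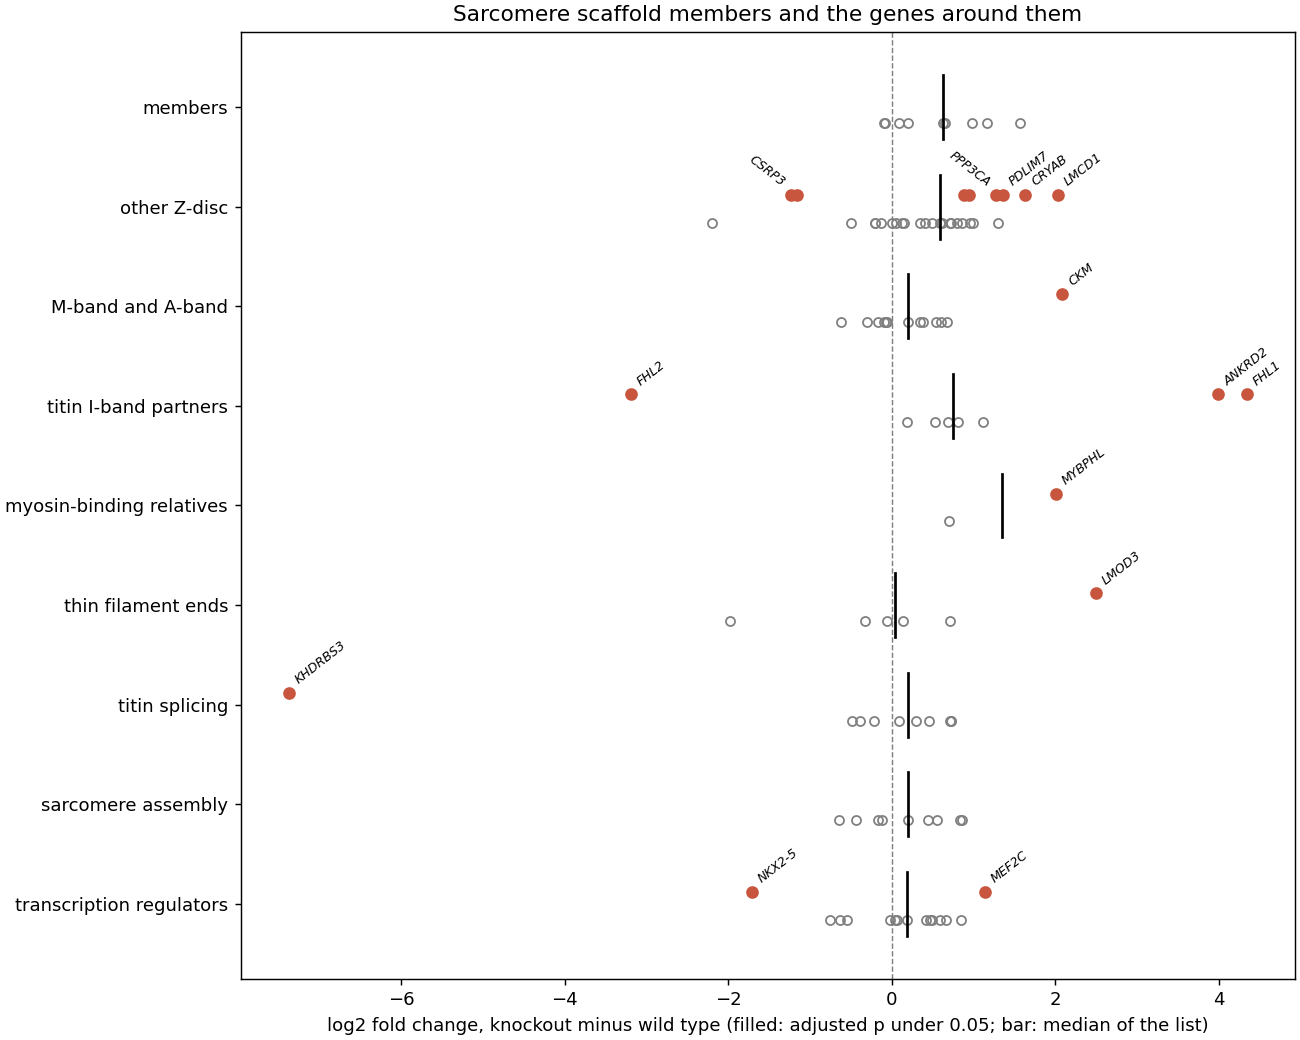
Log2 fold change, knockout minus wild type (horizontal axis), of each tested gene (circles) in the members and in 8 lists around them (rows), with the list median as a bar; filled circles passed limma at adjusted p under 0.05, and at most 5 of them per list carry a name. The 9 members hold no filled circle, while FHL1 and FHL2 lie far on either side; KHDRBS3, with 0 reads in the knockout, is drawn at its fitted value, which depends on the pseudocount.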

How the data were processed

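Per the labels, total RNA was extracted with a Qiagen RNeasy kit and converted with Clontech's Ultra Low v4 kit, which the labels do not say keeps strand. The submitters' processing notes name bcl2fastq 2.19, kallisto 0.44.0, DESeq2 1.28.1 and the build GRCh38, without roles or the transcript annotation. The deposited values are normalized counts per gene symbol, treated as a signal scaled by the authors. Every value (100%) was within 0.01 of a whole multiple of 1 step per library, so reads were recovered.

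limma 3.58.1 (R 4.3.3) was fitted to log2(value + 1) of the 15536 genes with a mean of at least 10, eBayes with a trend, 3 against 3 libraries, two-sided, with Benjamini-Hochberg adjustment over all of them. The pseudocount understates the ratio of 2 low values, but a mean of log2 values can also exceed the log2 ratio of means where low libraries differ (ANKRD2 was at 3.99 by limma and 3.21 by edgeR). Its moderated standard errors are given. edgeR 4.0.16, which called 1882 genes, and DESeq2 1.42.0, which called 3079, were run on the recovered reads. Exact permutation tests are two-sided over 20 splits. Transcript lengths, GC content and positions are those of GENCODE 29, which covered 97.67% of tested genes; the trend held beyond 20 kb was added after the data were seen. Promoter windows came from RefSeq. The fits were tested on simulated data. Python 3.11.15 and matplotlib 3.10.9 were used.

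The members and lists were chosen with earlier results of these data known. Named are the 9 members, the 3 genes most like each, partners in fixed ratios, STK25, and up to 5 genes per list past the threshold with a mean of at least 50. Library pairs of a genotype differed by more than sampling noise, with a chi-square of 19.9 to 382 per degree of freedom, so each counted as 1 replicate. Other settings were pseudocounts of 0.1 and 10, the low-value filter, scaling, a length and GC correction, the replicate block, eBayes options and leaving out each library. Of the listed M-band partners, 1 was tested and counted with the others but is otherwise not reported here.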

Additional observations from a re-analysis of the deposited data

How the results depend on the processing

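Of 455 recomputed values, 397 kept their direction and side of the threshold, or moved by less than the replicate spread; the cause of the others was not tested unless named. Scaling to equal totals turned LDB3 to -0.0873 and NEBL to -0.188, and quantile normalization turned them to -0.108 and -0.228 and MYPN to 0.0461. The length and GC correction gave 3 members called, with MYBPC3 at 0.775, ACTN2 at 1.24 and MYOM1 at 1.06, and turned TCAP to 0.0253; with the trend held beyond 20 kb, an alternative chosen after seeing the data, there were again 3, at 0.775, 1.24 and 1.06, and TCAP was at 0.025. DESeq2 called 1 member, ACTN2 at 1.16, and 3079 genes against 1982 by limma.

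DESeq2 called 16.9% of all the genes it tested. For the lists it called 12 of 30 other Z-disc genes, 2 of 13 M-band partners and 5 of 9 I-band partners. From the list of MYBPC3 relatives and MYLK3 it called 2 of 5. It also called 2 of 6 thin filament end genes, 2 of 10 splicing regulators, 1 of 9 assembly chaperones and 4 of 15 transcriptional activators. Equal totals gave 2 M-band partners, 1 assembly chaperone and 1 transcriptional activator, with 2006 of 15536 genes called across the table. Same-numbered libraries deviated with correlations of -0.23, -0.40 and 0.17, and not every library correlated best with its own number. The highest correlation, 0.45, was that of wild-type replicate 2 with knockout replicate 1. These values gave no sign that the replicate numbers pair the samples, but cannot settle how the samples were grown. With the replicate block 798 genes were called, 0 of them members, with 1 other Z-disc gene and 1 transcriptional activator.

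Relative to the 5 markers that are not sarcomere proteins, the differences were 0.998 for TTN, 0.975 for MYBPC3 and 1.5 for ACTN2. They were 1.32 for MYOM1, 1.91 for MYOM2, 0.242 for MYPN, 0.537 for LDB3, 0.436 for NEBL and 0.257 for TCAP. The NEBL to NEB ratio was 1.57 with a pseudocount of 10. Leaving out single libraries gave 796 (without wild-type replicate 1) to 2181 (without knockout replicate 1) genes called, 0 to 1 members, and values of 0.86 to 1.47 for ACTN2, 0.401 to 0.805 for MYBPC3, 0.587 to 1.24 for MYOM1, 0.575 to 2.09 for MYOM2, -0.376 to 0.163 for MYPN, -0.0867 to 0.208 for NEBL and -0.436 to 0.203 for TCAP. The list counts then ran from 2 to 9 for other Z-disc genes, 0 to 1 for assembly chaperones and 1 to 3 for transcriptional activators. With 1 library left out, 2 libraries of that genotype remain against 3. Depth is lowest for MYOM2 (73 to 1161 reads) and MYPN (177 to 536) among the members; NEB (4 to 78) and ANKRD2 (0 to 138) rest on fewer reads.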
